A study of Mus musculus with 12 samples.

Results

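The genes described here are the aminoacyl-tRNA synthetases, the enzymes that join each amino acid to its tRNA, in MC38 cells, a mouse colon adenocarcinoma line. They were chosen by symbol, 20 genes for the cytosolic enzymes and 16 genes, whose symbols end in 2, for the mitochondrial ones, which makes 36 of the 42329 entries of the expression table. RNA sequencing was done on 12 libraries in 4 groups of 3: cells with a guide RNA against Hcar1 (sgHcar1) in 20 mM lactate for 24 hours, sgHcar1 cells in phosphate-buffered saline vehicle (PBS), cells with a control guide (sgControl) in 20 mM lactate for 24 hours, and sgControl cells in PBS. Hcar1 encodes a G protein-coupled receptor for lactate, and the design asks what lactate does to gene expression with and without a guide against that receptor. The labels do not say whether the replicates came from separate cultures or whether a guide population is 1 clone, so the spread behind each p-value is that of these libraries and may be technical, and the guide and the history of each population cannot be told apart.

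Values are FPKM, fragments normalised for gene length and library total, as the authors deposited them. The files give no read counts, so depth in reads is unknown. Relative to the deepest library, depth estimated from steps in low values was 0.746 to 0.793 in sgHcar1 lactate, 0.865 to 0.933 in sgHcar1 PBS, 0.905 to 0.988 in sgControl lactate and 0.887 to 1 in sgControl PBS. Hcar1 was above 0 in 1 of 6 sgHcar1 libraries and in 0 of 6 sgControl libraries, at most 0.0196 FPKM, so its RNA does not check the guide labels. Summed FPKM of 5 epithelial markers was 110.2 to 114 in sgHcar1 lactate, 44.8 to 48.5 in sgHcar1 PBS, 4.85 to 5.14 in sgControl lactate and 2.95 to 3.26 in sgControl PBS, with Epcam listed at 0 in all 12 libraries. Krt18, an epithelial keratin, averaged 112.5 FPKM in sgHcar1 lactate and 46.2 FPKM in sgHcar1 PBS, against 0 FPKM in sgControl lactate and 0.0274 FPKM in sgControl PBS, and made up nearly all of that sum in sgHcar1 cells. The epithelial cadherin Cdh1 and the keratin Krt19 stood the other way, both listed at 0 in all sgHcar1 libraries, with Cdh1 at 4.53 FPKM in sgControl lactate and 1.72 FPKM in sgControl PBS and Krt19 at 0.3002 FPKM in sgControl lactate and 1.31 FPKM in sgControl PBS. Summed FPKM of 6 fibroblast markers was 54.8 to 59.2 in sgHcar1 lactate, 136 to 145 in sgHcar1 PBS, 100.2 to 105 in sgControl lactate and 117 to 120.1 in sgControl PBS, with Lum and Thy1 at 0 throughout. This sum hid opposite differences between the guide populations. In PBS, Col1a1 and Col1a2 averaged 23.1 and 114.6 FPKM in sgHcar1 against 1.01 and 45.5 FPKM in sgControl cells. Col3a1 and Pdgfra averaged 1.55 and 0.46 FPKM in sgHcar1 PBS against 67.2 and 5.02 FPKM in sgControl PBS. The 6 leukocyte markers summed to 8.02 to 10.3 FPKM in sgHcar1 lactate, 9.27 to 9.68 in sgHcar1 PBS, 19.8 to 21.0 in sgControl lactate and 16.2 to 16.5 in sgControl PBS, with Cd3e, Itgam and Adgre1 at 0 throughout. The part of depth and of these markers in the results below was not tested, and in such bulk RNA fewer cells of a type and less RNA per cell cannot be told apart.

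Cytosolic and mitochondrial protein synthesis use separate sets of synthetases, nearly all encoded by nuclear genes of their own, and the mitochondrial enzymes charge the tRNAs that decode the few proteins of the mitochondrial genome. Gars and Kars are exceptions, since each gives both the cytosolic and the mitochondrial enzyme for its amino acid, and Eprs encodes a single cytosolic protein with glutamyl and prolyl activity. Many cytosolic synthetase genes belong to the amino acid response, in which uncharged tRNA or stress of the endoplasmic reticulum leads through phosphorylation of eIF2 alpha to translation of the transcription factor ATF4. The members commonly listed as ATF4 targets, a list drawn from general knowledge, are Aars, Cars, Eprs, Gars, Iars, Lars, Mars, Nars, Sars, Tars, Wars and Yars.

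ATF4 acts with C/EBP family partners at elements whose core reads TGATGNAA, where N is any base. The RefSeq promoter table for GRCm38.p6, with windows of 250 bases before to 50 bases after each gene's start, held windows for 13 cytosolic and 14 mitochondrial members, and Cars, Hars, Lars, Nars, Rars, Vars, Wars, Hars2 and Pars2 were not searched. A match to TGATGNAA on either strand lay in the windows of 5 of 13 cytosolic genes and 0 of 14 mitochondrial genes, beside 3.97% of all 32851 windows in the table. Members were counted once per gene, while the share of all windows counts each window and leaves out no chromosome. The stricter TGATGCAA, whose matches are all also matches of the first, lay in 4 of 13 cytosolic and 0 of 14 mitochondrial genes and in 0.895% of all windows. The 0 of 14 mitochondrial genes lay near the share of all windows, and 8 searched cytosolic genes had no match either. The 5 cytosolic windows with a match are shown in 150 bases, from 120 before to 30 after the start. They are given in the sense of the gene, with each match in capitals.
Aars, alanyl, chr8:111033722-111033871, plus strand: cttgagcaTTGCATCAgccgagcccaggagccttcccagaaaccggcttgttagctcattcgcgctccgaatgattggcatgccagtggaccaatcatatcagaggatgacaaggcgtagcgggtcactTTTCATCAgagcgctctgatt
Gars, glycyl, chr6:55037881-55038030, plus strand: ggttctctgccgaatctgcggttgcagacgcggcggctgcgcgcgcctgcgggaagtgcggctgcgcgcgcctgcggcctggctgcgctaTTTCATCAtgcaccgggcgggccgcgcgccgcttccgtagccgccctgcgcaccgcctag
Iars, isoleucyl, chr13:49682010-49682159, plus strand: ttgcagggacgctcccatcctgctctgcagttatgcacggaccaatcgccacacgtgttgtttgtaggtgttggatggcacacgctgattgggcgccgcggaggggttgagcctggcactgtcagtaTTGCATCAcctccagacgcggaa
Tars, threonyl, chr15:11399629-11399778, minus strand: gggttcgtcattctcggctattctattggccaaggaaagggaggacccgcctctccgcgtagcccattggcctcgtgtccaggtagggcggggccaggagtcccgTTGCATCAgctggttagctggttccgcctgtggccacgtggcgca
Yars, tyrosyl, chr4:129189783-129189932, plus strand: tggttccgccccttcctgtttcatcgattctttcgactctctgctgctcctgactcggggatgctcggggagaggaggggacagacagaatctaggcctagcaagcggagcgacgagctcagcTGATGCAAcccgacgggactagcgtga
Yars reads the core on the strand of the gene, and the other 4 genes carry its reverse complement. Aars has 2 matches, and its downstream match and that of Gars differ from the stricter core. A match is a run of letters in a window and not a measured binding site.

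As a class, cytosolic synthetase transcripts stood well above mitochondrial ones in every group, and each class spread over a wide range of FPKM. In sgControl PBS the highest were Kars, lysyl, at 189.7 ± 6.18 FPKM (SD, n = 3), Vars, valyl, at 107 ± 3.40 FPKM, and Nars, asparaginyl, at 104 ± 2.30 FPKM, and the libraries of Vars and Nars overlapped. In the other 3 groups Nars was the highest member, at 589.8 ± 14.8 FPKM in sgHcar1 lactate, 230.8 ± 2.68 FPKM in sgHcar1 PBS and 381.5 ± 3.27 FPKM in sgControl lactate. The asparaginyl enzyme thus made up 21.6% of summed cytosolic FPKM in sgHcar1 lactate and 14.8% in sgHcar1 PBS, and 17.3% in sgControl lactate against 9.76% in sgControl PBS. The lowest members were Pars2, mitochondrial prolyl, at 1.13 ± 0.256 FPKM in sgHcar1 lactate, and Nars2, mitochondrial asparaginyl, at 1.14 ± 0.225 FPKM in sgControl PBS. Not every mitochondrial gene was low: in sgControl PBS the libraries of Yars2, mitochondrial tyrosyl, at 19.3 ± 1.03 FPKM, overlapped those of cytosolic Yars, at 18.2 ± 0.414 FPKM. Of the 35 pairs of neighbours in the order of levels, 13 had overlapping libraries in sgHcar1 lactate, 13 in sgHcar1 PBS, 9 in sgControl lactate and 13 in sgControl PBS. All 36 members passed the filter on low values, at least 1 FPKM in at least 3 libraries.

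**Figure D1:**
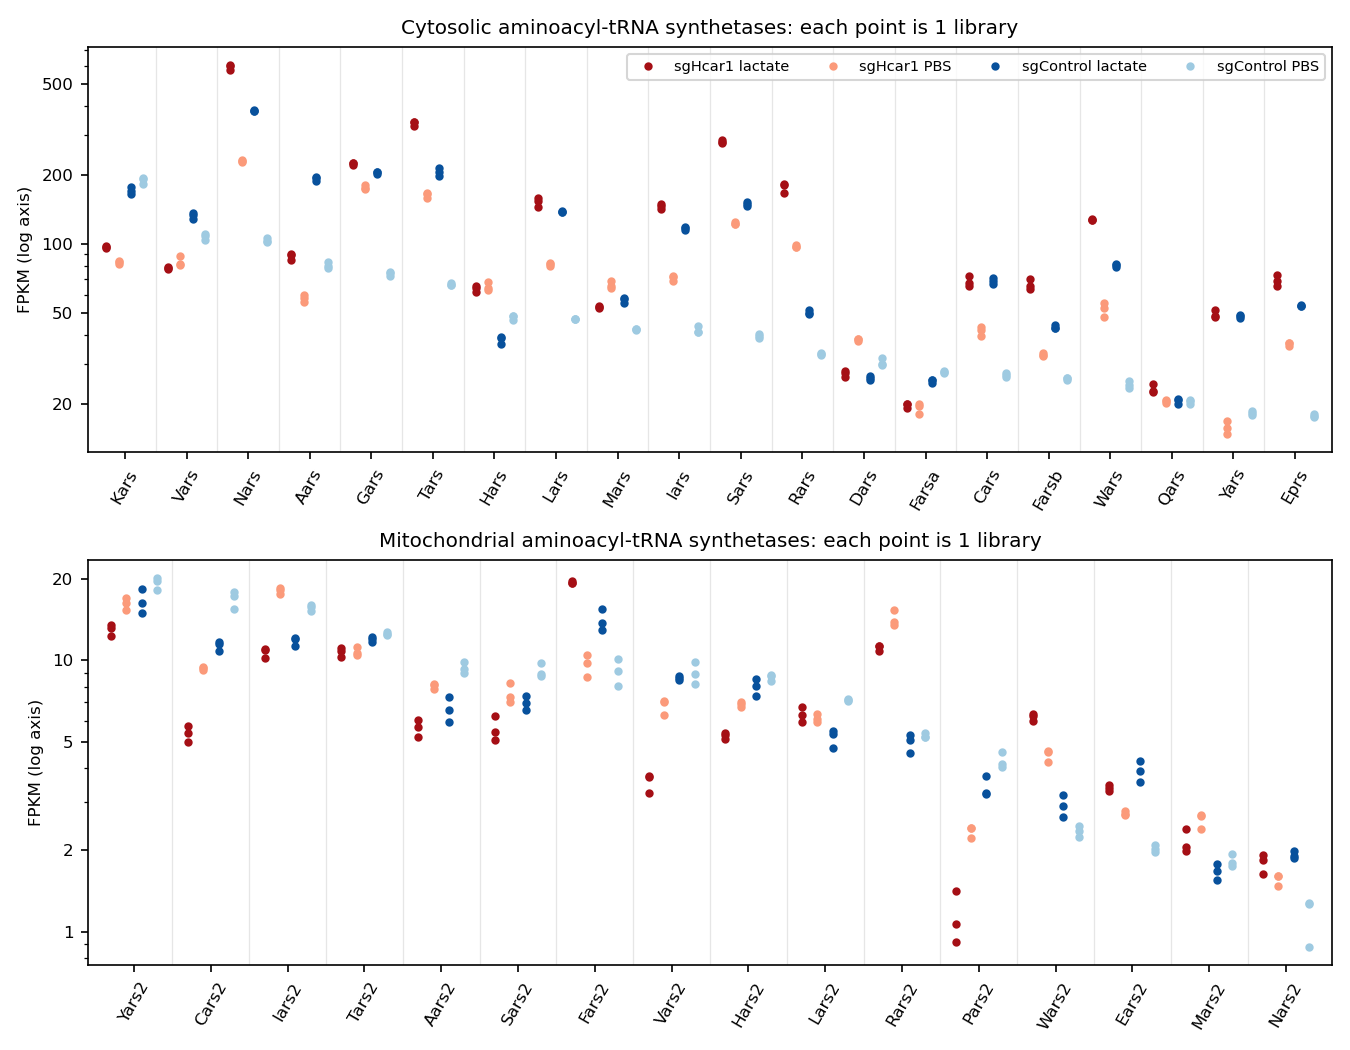
Level of each synthetase gene in FPKM on a log axis, cytosolic genes in the upper panel and mitochondrial genes in the lower, with 1 point per library coloured by group. Nars reaches 573 to 601 FPKM in sgHcar1 lactate, and the lowest points are those of Pars2 in sgHcar1 lactate and Nars2 in sgControl PBS, both with a mean near 1 FPKM.

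Added up per library, cytosolic synthetase FPKM was higher with lactate and mitochondrial FPKM lower, in both guide populations. The cytosolic sum was 2674, 2755 and 2777 FPKM in sgHcar1 lactate against 1552, 1549 and 1567 FPKM in sgHcar1 PBS. It was 2199, 2201 and 2216 FPKM in sgControl lactate against 1075, 1066 and 1058 FPKM in sgControl PBS. No library of one group overlapped another group in this sum as deposited. The mitochondrial sum averaged 111 ± 0.886 FPKM in sgHcar1 lactate and 127 ± 2.16 FPKM in sgHcar1 PBS (SD, n = 3 each). In sgControl it averaged 119.8 ± 1.70 FPKM in lactate and 134 ± 4.19 FPKM in PBS (SD, n = 3 each). The mitochondrial sums of the 4 groups did not overlap either, but the 2 PBS groups nearly touched. The highest sgHcar1 PBS library was at 129.18 FPKM and the lowest sgControl PBS library at 129.22 FPKM. The order of the guide populations depended on scaling. Per 1000000 of a library's summed FPKM, cytosolic members averaged 6564 in sgHcar1 lactate and 7044 in sgControl lactate, so that sgControl was then the higher in lactate, and 4250.2 in sgHcar1 PBS and 3299 in sgControl PBS. On that scale mitochondrial members averaged 267 in sgHcar1 lactate and 348 in sgHcar1 PBS, and 383 in sgControl lactate and 414 in sgControl PBS. Lactate groups kept their place relative to the PBS groups of the same guide on both scales.

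Dividing one sum by the other within a library cancels any single factor applied to all values of that library. Cytosolic over mitochondrial FPKM was 24.5 ± 0.585 in sgHcar1 lactate and 12.2 ± 0.176 in sgHcar1 PBS, and 18.4 ± 0.287 in sgControl lactate and 7.98 ± 0.233 in sgControl PBS (SD, n = 3 each). As deposited, the ratio was thus higher in lactate than in PBS for each guide, and higher in sgHcar1 than in sgControl under each treatment, in every library. Quantile normalization is not a single factor. With it, the median log2 difference of sgHcar1 from sgControl in lactate was -0.10 for cytosolic and -0.08 for mitochondrial members. As deposited these medians were 0.15 and -0.15. An exact permutation test of 3 against 3 libraries cannot go below a two-sided p of 0.1, so no p is given for these sums.

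**Figure D2:**
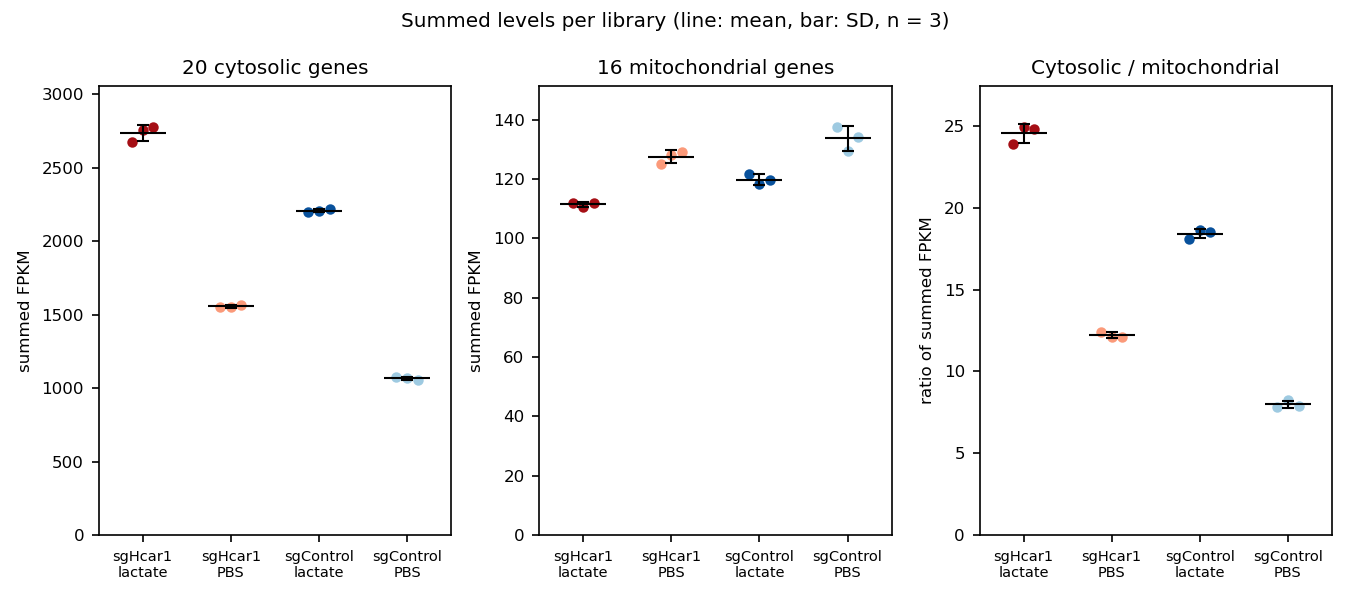
Summed FPKM of the 20 cytosolic genes, summed FPKM of the 16 mitochondrial genes and the ratio of the sums, by group, with 1 point per library and the group mean. The ratio lies near 24.5, 12.2, 18.4 and 7.98 in sgHcar1 lactate, sgHcar1 PBS, sgControl lactate and sgControl PBS.

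In sgHcar1 cells, 15 of 20 cytosolic synthetase genes rose with lactate, 2 fell and 3 did not pass the test, with a median log2 change of 0.77. The test was limma on log2(FPKM + 1) with Benjamini-Hochberg adjustment over 13736 genes at a threshold of 0.05, and the background was 36.8% of genes higher, 35.4% lower and 72.2% in either direction, with a median of 0.00. On this log2 scale a rise of at least 2-fold was seen for 6 of the 20 and a fall of that size for 0, against 8.83% and 6.16% of all genes. Yars, tyrosyl, had 47.8, 48.5 and 51.3 FPKM in sgHcar1 lactate against 15.7, 14.8 and 16.8 FPKM in sgHcar1 PBS. Nars had 573, 595 and 601 FPKM in lactate against 228, 233 and 231 FPKM in PBS. Wars, the tryptophanyl enzyme and a gene also induced by interferon gamma, had 127, 129 and 127 FPKM in lactate against 52.4, 48.0 and 55.4 FPKM in PBS. In each of the 3 genes every lactate library lay above every PBS library. The log2 changes were 1.58 ± 0.04 for Yars, 1.35 ± 0.03 for Nars, 1.28 ± 0.05 for Wars and 1.18 ± 0.02 for Sars, the seryl enzyme (± SE), with limma adjusted p of at most 5.9e-10. Dars, aspartyl, fell by 0.48 and Mars, methionyl, fell by 0.31 on the log2 scale. With each library rescaled to an equal sum of FPKM, which moved the median of all genes by -0.12, 5 cytosolic genes fell. Kars and Qars, glutaminyl, which rose as deposited, did not pass with that rescaling or with quantile normalization. Hars, histidyl, Farsa, the alpha subunit of the phenylalanyl enzyme, and Vars did not pass, at -0.03, 0.04 and -0.09.

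In sgControl cells, 15 of 20 cytosolic genes rose with lactate, 4 fell and 1 did not pass, with a median log2 change of 1.29, beside a background of 33.9% of genes higher, 31.9% lower and 65.7% in either direction and a median of 0.00. At least 2-fold rises were seen for 11 of the 20 and falls of that size for 0, against 4.26% and 2.95% of all genes. Sars had 147, 152 and 149.6 FPKM in sgControl lactate against 40.4, 38.9 and 39.7 FPKM in sgControl PBS. Nars had 380.2, 385 and 379 FPKM in lactate against 102, 107 and 103 FPKM in PBS. Tars, threonyl, had 197, 214 and 205 FPKM in lactate against 67.8, 66.1 and 65.9 FPKM in PBS. The groups of all 3 genes were far apart compared with the spread of their libraries. The log2 changes were 1.89 ± 0.02 for Sars, 1.86 ± 0.03 for Nars, 1.69 ± 0.05 for Wars and 1.61 ± 0.03 for Tars (± SE), with limma adjusted p of at most 1.51e-10. The 4 that fell were Hars by 0.32, Dars by 0.22, Kars by 0.15 and Farsa by 0.13 on the log2 scale, and Qars, glutaminyl, did not pass, at 0.01.

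The rises were found mainly among the cytosolic genes commonly listed as ATF4 targets. In sgHcar1 cells 11 of these 12 rose and 1, Mars, fell, with a median log2 change of 0.97, and in sgControl cells 12 of 12 rose, with a median of 1.50. Of the other 8 cytosolic genes, 4 rose and 1 fell in sgHcar1 cells, with a median of 0.11, and 3 rose and 4 fell in sgControl cells, with a median of -0.06. Kars and Qars, whose rise in sgHcar1 cells depended on scaling, are among the 4. The 3 of these 8 that rose in sgControl cells were Farsb at 0.73, Rars, arginyl, at 0.59 and Vars at 0.31. The 5 genes with a promoter match shown above all rose in both populations, with medians of 1.03 in sgHcar1 and 1.45 in sgControl. Among the 8 searched cytosolic genes without a match, 5, Kars and Qars among them, rose and 2 fell in sgHcar1 cells, with a median of 0.20. In sgControl cells 4 of the 8 rose and 3 fell, with a median of 0.21. Cytosolic genes that were not searched, Nars and Lars among them, are in neither group. Sars and Eprs had no match in the window and rose by 1.18 and 0.90 in sgHcar1 cells and by 1.89 and 1.55 in sgControl cells. The counts of these lists stand beside 36.8% of all genes higher and 35.4% lower in sgHcar1 cells, and 33.9% and 31.9% in sgControl cells.

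Subunits of one enzyme did not move together. The phenylalanyl enzyme is built from the Farsa product, the alpha subunit, and the Farsb product, the beta subunit, in equal number. Farsb rose with lactate by 1.00 ± 0.03 in sgHcar1 cells and by 0.73 ± 0.03 in sgControl cells (log2, ± SE), while Farsa did not pass in sgHcar1 cells and fell in sgControl cells. Farsb over Farsa FPKM was 3.33, 3.52 and 3.27 in sgHcar1 lactate against 1.79, 1.68 and 1.67 in sgHcar1 PBS. The ratio was 1.69, 1.79 and 1.69 in sgControl lactate against 0.917, 0.948 and 0.944 in sgControl PBS. Each lactate group lay above its PBS group in every library, and sgControl lactate overlapped sgHcar1 PBS. Among the 8 members of the multisynthetase complex, which holds Dars, Eprs, Iars, Kars, Lars, Mars, Qars and Rars on a scaffold, 6 rose and 2 fell in sgHcar1 cells, and 5 rose and 2 fell in sgControl cells. Of the 6 complex genes that rose in sgHcar1 cells, Kars and Qars did not pass with rescaled libraries or with quantile normalization. Among the 12 cytosolic genes outside the complex, 9 rose and 0 fell in sgHcar1 cells, and 10 rose and 2 fell in sgControl cells. These counts stand beside 36.8% of all genes higher and 35.4% lower in sgHcar1 cells, and 33.9% and 31.9% in sgControl cells. The 2 of 8 complex genes that fell in each population did not exceed those shares.

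Mitochondrial synthetase genes changed less, and more of them fell than rose. In sgHcar1 cells 3 of 16 rose with lactate, 10 fell and 3 did not pass, with a median log2 change of -0.31, and in sgControl cells 4 rose, 7 fell and 5 did not pass, with a median of -0.10. The same backgrounds apply, 36.8% of genes higher and 35.4% lower in sgHcar1 cells and 33.9% and 31.9% in sgControl cells, and in sgControl cells the 11 of 16 mitochondrial members called in either direction stood beside 65.7% of all genes. On the log2(FPKM + 1) scale no mitochondrial member changed by 2-fold with lactate in either population. On mean FPKM as deposited, 2 members were just past 2-fold in sgHcar1 cells, Fars2 with 19.4 FPKM in lactate against 9.65 FPKM in PBS, and Pars2 with 1.13 FPKM in lactate against 2.36 FPKM in PBS. Fars2, mitochondrial phenylalanyl, had 19.3, 19.3 and 19.6 FPKM in sgHcar1 lactate against 8.67, 9.77 and 10.5 FPKM in sgHcar1 PBS, and 13.7, 13.0 and 15.5 FPKM in sgControl lactate against 8.07, 9.11 and 10.1 FPKM in sgControl PBS. Lactate libraries lay above PBS libraries in both populations. The log2 changes of Fars2 were 0.94 ± 0.08 in sgHcar1 and 0.58 ± 0.08 in sgControl, with limma adjusted p of 1.45e-06 and 0.000113.

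Cars2, mitochondrial cysteinyl, had 5.71, 5.38 and 4.99 FPKM in sgHcar1 lactate against 9.41, 9.24 and 9.42 FPKM in sgHcar1 PBS, and 10.8, 11.4 and 11.6 FPKM in sgControl lactate against 17.9, 15.5 and 17.3 FPKM in sgControl PBS. Its libraries did not overlap in either population, and it fell by 0.70 in sgHcar1 and by 0.54 in sgControl cells on the log2 scale. Vars2, mitochondrial valyl, fell by 0.78 and Iars2, mitochondrial isoleucyl, fell by 0.70 in sgHcar1 cells, with limma adjusted p of at most 1.45e-06 for these and for Fars2 and Cars2. In sgControl cells Ears2, mitochondrial glutamyl, rose by 0.70 ± 0.05 and Nars2 by 0.46 ± 0.08 (log2, ± SE), and the largest limma adjusted p of these 2, Fars2 and Cars2 was 0.000341. Genes that fell in both populations were Aars2, Cars2, Iars2, Pars2, Sars2 and Yars2, the mitochondrial alanyl, cysteinyl, isoleucyl, prolyl, seryl and tyrosyl enzymes, and those that rose in both were Ears2, Fars2 and Wars2, mitochondrial tryptophanyl. Tars2, mitochondrial threonyl, passed in neither, at -0.00 in sgHcar1 and -0.06 in sgControl cells. Hars and Hars2 lie on opposite strands with gene models that overlap by 198 bases, and whether fragments were counted by strand is not given in the sources used here, so reads of the overlap cannot be told apart.

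**Figure D3:**
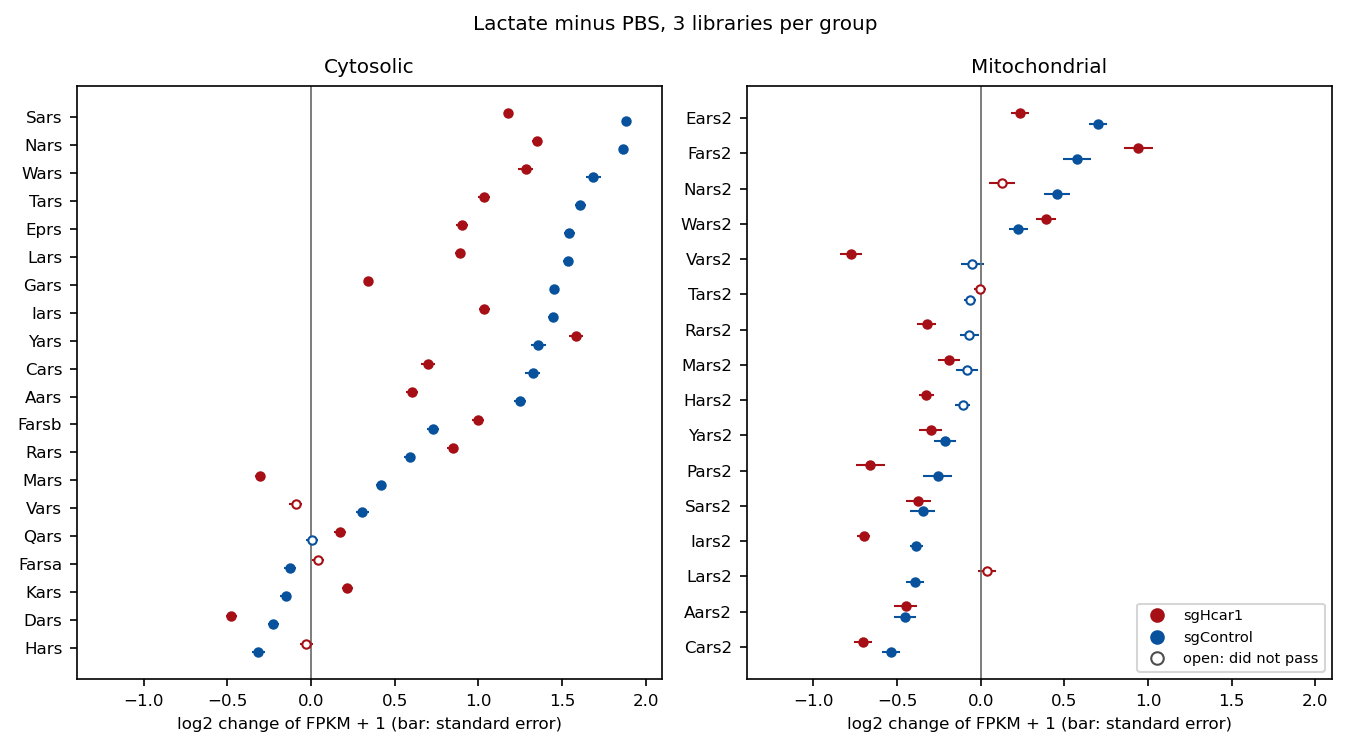
Log2 change of FPKM + 1 with lactate for each synthetase gene, with standard error bars, in sgHcar1 and in sgControl cells; filled points passed the test and open points did not. Most cytosolic points lie right of 0, with Sars at 1.18 in sgHcar1 and 1.89 in sgControl, and no mitochondrial point reaches 1 in either direction.

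Set beside the mitochondrial enzyme for the same amino acid, the cytosolic gene had the larger log2 change with lactate in 14 of 16 pairs in sgHcar1 cells and in 14 of 16 pairs in sgControl cells. Eprs stands in 2 pairs, with Ears2 and Pars2. The median excess of the cytosolic change was 1.04 in sgHcar1 and 1.52 in sgControl cells. For tyrosine, Yars changed by 1.58 and Yars2 by -0.30 in sgHcar1 cells, and for serine, Sars changed by 1.89 and Sars2 by -0.35 in sgControl cells. Phenylalanine went the other way in both populations, with Farsa at 0.04 and Fars2 at 0.94 in sgHcar1 cells and Farsa at -0.13 and Fars2 at 0.58 in sgControl cells. That exception rests on pairing Fars2 with Farsa, since the other subunit gene, Farsb, changed by 1.00 in sgHcar1 and by 0.73 in sgControl cells, above Fars2 in both. The other exceptions were Mars at -0.31 and Mars2, mitochondrial methionyl, at -0.19 in sgHcar1 cells, and Hars at -0.32 and Hars2, mitochondrial histidyl, at -0.11 in sgControl cells.

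**Figure D4:**
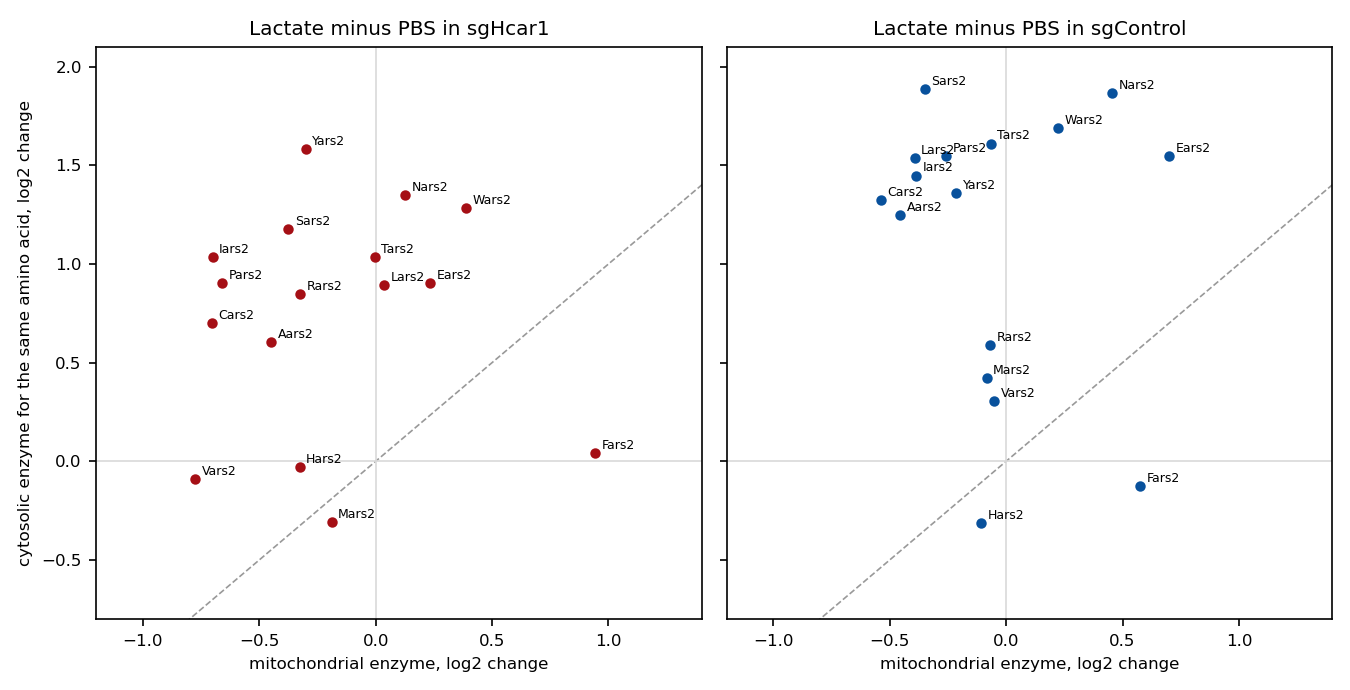
Lactate change of the cytosolic gene and of its mitochondrial counterpart for 16 pairs, as log2 change of FPKM + 1, in sgHcar1 and in sgControl cells. Each point is 1 pair, with the mitochondrial change on the horizontal axis and the cytosolic change on the vertical axis. In each population 14 of 16 points lie above the dashed line of equal change.

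Lactate raised many of the commonly listed ATF4 targets less in sgHcar1 than in sgControl cells. A contrast of the 2 lactate effects, sgHcar1 minus sgControl, was tested in the same limma fit and was lower for 13 and higher for 7 of the 20 cytosolic genes, beside 28.7% of all genes lower, 30.4% higher and 59.1% in either direction, with a median of -0.41 for the members and 0.01 for all genes. For the mitochondrial genes it was lower for 7 and higher for 2 of 16, with 7 that did not pass and a median of -0.14. Of the 12 cytosolic genes commonly listed as ATF4 targets, 11 had a lower value and 1, Yars, a higher one, with a median of -0.63. Of the other 8 cytosolic genes, 6 were higher and 2 lower, with a median of 0.21. Rescaled to equal sums of FPKM, which moved the median of all genes by -0.20, 1 of the 20 cytosolic genes was higher, and Yars, Farsa and Qars turned sign.

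Gars had the largest difference among the members, at -1.12 ± 0.03 (log2, ± SE), and was the only one at 2-fold or more, against 3.59% of all genes lower by that size. It had 225, 225 and 222 FPKM in sgHcar1 lactate against 181, 174 and 176 FPKM in sgHcar1 PBS, and 205, 202 and 207 FPKM in sgControl lactate against 74.4, 75.2 and 72.4 FPKM in sgControl PBS. The 3 groups other than sgControl PBS thus lay within 174 to 225 FPKM, and the sgHcar1 libraries in PBS were already more than 2-fold above the sgControl ones in PBS. Mars differed by -0.73, Sars by -0.71 and Aars by -0.65, and the largest limma adjusted p of these 4 was 1.68e-06. Mars went in opposite directions, with 52.6, 53.3 and 53.8 FPKM in sgHcar1 lactate against 65.7, 64.1 and 68.6 FPKM in sgHcar1 PBS, and 55.4, 58.3 and 57.5 FPKM in sgControl lactate against 42.0, 42.6 and 42.5 FPKM in sgControl PBS. Libraries did not overlap between treatments in either population. As deposited, Kars also went in opposite directions, with a rise of 0.22 in sgHcar1 and a fall of 0.15 in sgControl cells. Its difference was 0.37. The rise of Kars in sgHcar1 cells depended on scaling. It was 0.03 with each library rescaled to an equal sum of FPKM and 0.05 with quantile normalization, and passed in neither. Among the mitochondrial genes the difference was -0.72 for Vars2, -0.47 for Ears2, 0.43 for Lars2, mitochondrial leucyl, and -0.40 for Pars2, with a largest limma adjusted p of 0.0151.

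Without lactate, most cytosolic synthetase transcripts were already higher in sgHcar1 than in sgControl cells. These comparisons use the same libraries as the lactate comparisons. In PBS 14 of 20 cytosolic genes were higher, 5 lower and 1 did not pass, beside 38.2% of all genes higher, 38.4% lower and 76.7% in either direction, with a median log2 difference of 0.63 against 0.01 for all genes. Differences of at least 2-fold were found for 6 genes upward, against 8.68% of all genes, and for 1, Kars, downward, against 11.5%. Sars had 122.5, 124 and 122.5 FPKM in sgHcar1 PBS against the 38.9 to 40.4 FPKM of sgControl PBS given above. Rars had 98.5, 97.4 and 96.5 FPKM in sgHcar1 PBS against 33.5, 32.9 and 33.2 FPKM in sgControl PBS. Kars had 82.1, 83.7 and 84.0 FPKM in sgHcar1 PBS against 193, 194 and 183 FPKM in sgControl PBS. All 3 genes kept the populations well apart, Kars in the opposite direction from the other 2. The log2 differences were 1.61 ± 0.02 for Sars, 1.53 ± 0.03 for Rars, 1.28 ± 0.03 for Tars and 1.25 ± 0.02 for Gars (± SE), and -1.18 ± 0.03 for Kars, with limma adjusted p of at most 4.31e-11 for the first 4 and 4.22e-11 for Kars. The other genes lower in sgHcar1 cells were Farsa, Aars, Vars and Yars, by 0.20 to 0.50 on the log2 scale.

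In PBS 6 of 16 mitochondrial members were higher and 9 lower in sgHcar1 than in sgControl cells, beside 38.2% of all genes higher and 38.4% lower, with a median of -0.19. The number higher was thus close to the share of all genes. Rars2, mitochondrial arginyl, had 13.5, 15.3 and 13.8 FPKM in sgHcar1 PBS against 5.38, 5.20 and 5.20 FPKM in sgControl PBS, a log2 difference of 1.28 ± 0.06. Both arginyl genes were thus higher in sgHcar1 cells. Cars2 was lower by 0.79 and Pars2 by 0.65, and Wars2 was higher by 0.71, with limma adjusted p of at most 3.29e-05 for the 4 genes.

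In lactate, 12 of 20 cytosolic genes were higher in sgHcar1 than in sgControl cells, 5 were lower and 3 did not pass, beside 41.3% of all genes higher, 40.9% lower and 82.2% in either direction, with a median of 0.15. This count depended on scaling: with each library rescaled to an equal sum of FPKM, 7 were higher and 12 lower, since that scaling moved the median of all genes to -0.37, and the members above the median of all genes were 14 of 20 as deposited, 13 of 20 rescaled and 8 of 20 with quantile normalization. Rars had 166.5, 180.0 and 182.5 FPKM in sgHcar1 lactate against 49.6, 51.7 and 50.1 FPKM in sgControl lactate, a log2 difference of 1.78 ± 0.03. Aars had 85.3, 89.6 and 90.5 FPKM in sgHcar1 lactate against 194, 189 and 196 FPKM in sgControl lactate, a log2 difference of -1.12 ± 0.04. Neither gene had overlapping libraries, and the populations stood in opposite order for the 2 genes. Sars was higher by 0.90 and Kars lower by 0.81, and limma adjusted p was at most 7.65e-10 for the 4 genes. Cars, Dars and Yars did not pass, at -0.00, 0.07 and 0.02. Of the mitochondrial genes, 5 of 16 were higher and 10 lower, with a median of -0.15, Rars2 at 1.02, and Vars2, Pars2 and Cars2 at -1.08, -1.05 and -0.95, with limma adjusted p of at most 4.28e-07.

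**Figure D5:**
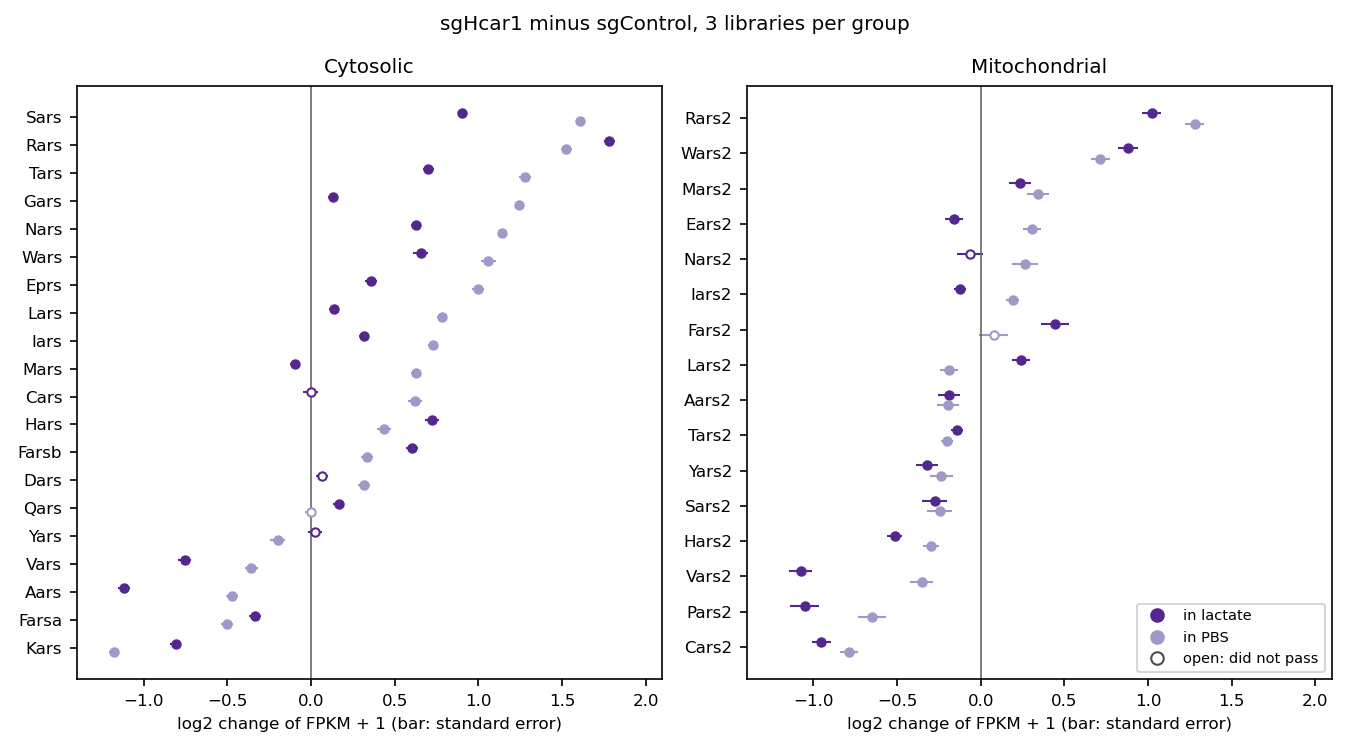
Log2 difference of FPKM + 1 between sgHcar1 and sgControl cells for each synthetase gene, in lactate and in PBS, with standard error bars; filled points passed the test and open points did not. Rars lies at 1.78 in lactate and 1.53 in PBS, Kars at -0.81 and -1.18, and Rars2 leads the mitochondrial panel at 1.02 and 1.28.

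Genes that act next to the synthetases were counted in the same way, beside 36.8% of all genes higher and 35.4% lower with lactate in sgHcar1 cells and 33.9% higher and 31.9% lower in sgControl cells. The lists are short, and no difference between them and the cytosolic enzymes was tested. Of the 3 scaffold genes of the multisynthetase complex, Aimp1, Aimp2 and Eef1e1, 2 rose and 1 fell with lactate in sgHcar1 cells, and 1 rose and 1 fell in sgControl cells. Eef1e1 rose in both, by 0.72 in sgHcar1 and 0.69 in sgControl cells, and Aimp2 fell in both, by 0.43 in sgHcar1 and by 0.57 in sgControl cells. Of 4 cytosolic elongation factor genes, 3 rose and 0 fell in sgHcar1 cells, and 2 rose and 2 fell in sgControl cells. Of 7 genes of mitochondrial charging and elongation, 1 rose and 5 fell in sgHcar1 cells, and 2 rose and 3 fell in sgControl cells. Among these, Gatb, a subunit of the amidotransferase that makes glutaminyl-tRNA in mitochondria, fell by 0.62 in sgHcar1 and by 0.47 in sgControl cells. The other subunit genes did not fall with it. Gatc rose by 0.49 in sgHcar1 and by 0.20 in sgControl cells, and Qrsl1 passed in neither. Of 6 editing and synthetase-like genes, 1 rose and 4 fell in sgHcar1 cells, and 1 rose and 3 fell in sgControl cells. Sepsecs, which completes selenocysteinyl-tRNA, was the one that rose, by 0.52 in sgHcar1 and by 0.75 in sgControl cells.

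Of 19 genes of tRNA maturation and export, 11 rose and 4 fell in sgHcar1 cells, and 7 rose and 7 fell in sgControl cells, the counts in sgControl cells lying near the 33.9% higher and 31.9% lower of all genes. Xpot, the exporter of tRNA from the nucleus, rose by 0.44 in sgHcar1 and by 1.36 in sgControl cells, with a difference of -0.92, and the tRNA methyltransferase gene Trmt1 rose by 1.17 in sgHcar1 and by 0.66 in sgControl cells. Of 6 amino acid response genes, Atf4, Asns, Chac1, Ddit3, Sesn2 and Trib3, 6 rose with lactate in each population, with medians of 0.99 in sgHcar1 and 3.14 in sgControl cells, and the difference was lower for 6 of 6, with a median of -1.57. Atf4 rose by 0.35 in sgHcar1 and by 1.79 in sgControl cells, and in PBS it was higher in sgHcar1 cells by 1.16. In PBS all 6 genes were already at least 2-fold higher in sgHcar1 than in sgControl cells, beside 8.68% of all genes, with a median of 2.30. In lactate 3 of the 6 were higher in sgHcar1 cells, 2 were lower and 1 did not pass, with a median of 0.46. The shares of all genes there were 41.3% higher and 40.9% lower. The part of these genes in the changes of the synthetases was not tested.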

How the data were processed

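RNA-seq was measured in 12 libraries. Per the labels' protocols, total RNA was extracted with Trizol and made into TruSeq libraries. The authors deposited FPKM per gene and library, and the submitters' processing notes list GRCm38 as the build, featureCounts 1.5.0-p3 and HISAT2 2.0.5. Strand setting, fragment totals and filters are not given in the sources used here. Columns were assigned to groups by their letters, those of sgHcar1 by elimination.

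FPKM values were tested as log2(FPKM + 1) with limma 3.58.1 (R 4.3.3, trend) on the 13736 genes that reached 1 FPKM in 3 or more libraries. One model with 4 group means gave 5 contrasts, two-sided, with Benjamini-Hochberg adjustment over all genes and a threshold of 0.05. Fold changes on this scale understate those of low genes. Symbols and gene positions came from the table and GRCm38 annotations, and promoter windows from RefSeq. Tables used Python 3.11.15 with pandas 2.3.3 and numpy 2.4.6, and figures matplotlib 3.10.9.

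Members, gene lists and tests were chosen with earlier results of these data known. Named members were the 4 with the largest change per class and contrast among those that passed, and others named for their role or as exceptions were chosen after their values were seen. Alternatives were a pseudocount of 0.1, no filter, a mean of at least 5 FPKM, 3 scalings, no trend, a replicate block, a fit of the compared groups alone, and each library left out in turn. The symbols Eef1a1, Tufm and Tsen34 of the lists were not analysed here.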

Additional observations from a re-analysis of the deposited data

Results flagged for a closer look

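The 9 values below passed a test of the difference between the 2 lactate effects itself, a limma contrast adjusted over all genes. Of the 36 members, 20 were lower and 9 higher in that contrast. The values are those of the 4 members with the largest difference in each class, and of Kars. Mars and, as deposited, Kars also changed in opposite directions. The rise of Kars in sgHcar1 cells did not pass with libraries rescaled to equal sums of FPKM or with quantile normalization. The 9 values are log2 differences, sgHcar1 minus sgControl. Among cytosolic genes the difference was -1.12 for Gars, -0.73 for Mars, -0.71 for Sars, -0.65 for Aars and 0.37 for Kars. Among mitochondrial genes it was -0.72 for Vars2, -0.47 for Ears2, 0.43 for Lars2 and -0.40 for Pars2. Differences of this kind passed for 59.1% of all genes. Groups of 3 libraries were not searched for single outlying libraries.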

How the results depend on the processing

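With a mean of at least 5 FPKM only 11 mitochondrial members were tested, and members below it have no value there: 1 was higher with lactate in sgHcar1 and 1 in sgControl cells, 4 were lower in the difference, 3 were higher for the guide in lactate and 2 in PBS, and the cytosolic over mitochondrial ratios were 28.3 in sgHcar1 lactate, 13.7 in sgHcar1 PBS, 20.8 in sgControl lactate and 8.74 in sgControl PBS. Rescaling each library to 1000000 moved the median of all genes by -0.12 for lactate in sgHcar1, 0.04 for lactate in sgControl, -0.20 for the difference, -0.16 for the guide in PBS and -0.37 for the guide in lactate. The share of calls that were higher was 40.0% rescaled against 50.9% as deposited for lactate in sgHcar1, 30.1% against 51.4% for the difference, 38.6% against 49.9% for the guide in PBS and 31.7% against 50.3% for the guide in lactate. Rescaled, cytosolic genes lower with lactate in sgHcar1 were 5, the difference was higher for 1 cytosolic and 1 mitochondrial gene and lower for 11 mitochondrial genes, and for the guide in lactate 7 cytosolic and 2 mitochondrial genes were higher and 12 cytosolic lower. The sign turned for Qars (-0.0049) with lactate in sgHcar1, for Farsa (-0.057), Qars (-0.056) and Yars (-0.0013) in the difference, and for Eprs (-0.048), Gars (-0.28), Iars (-0.091), Lars (-0.27), Qars (-0.24), Lars2 (-0.12) and Mars2 (-0.043) for the guide in lactate. With quantile normalization 4 cytosolic genes were lower with lactate in sgHcar1, the difference was higher for 1 cytosolic and 1 mitochondrial gene, 10 cytosolic and 6 mitochondrial genes were lower for the guide in lactate, and Yars (-0.034) in the difference and Gars (-0.32), Iars (-0.018), Lars (-0.19) and Nars (-0.18) for the guide in lactate turned sign. The cause of these shifts was not tested.

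Leaving out 1 library at a time, the count of mitochondrial genes with a higher difference was 1 to 3, and 1 without sgHcar1 PBS replicate 1, sgControl lactate replicate 2 or sgControl PBS replicate 3. Same-numbered replicates did not deviate together, with correlations of -0.05 to 0.09 over 18 pairs, 0 of them above 0.1, so the numbers are not taken as pairs. With a replicate block, 15 cytosolic genes rose with lactate in each population, and 3 instead of 2 fell in sgHcar1 cells. Of the values of single members under all alternatives, 3133 kept direction and side of the threshold, 57 no longer passed and 16 turned sign. Depth in reads is unknown, so no counting error could be given for the low members.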
